A study of Mus musculus with 22 samples.

Results

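Accessible chromatin was described at the loci of 5 transporter genes of the blood-retina barrier, Slc7a5, Slc16a1, Slco1c1, Mfsd2a and Abcb1a, in endothelial cells sorted from mouse retinas. A locus was a fixed window of the mm9 build around each gene, and its members were the ATAC-seq peaks, called regions below, with their midpoint in that window. The windows were 170 kb centred on 124.415 Mb of chromosome 8 for Slc7a5, 140 kb on 104.45 Mb of chromosome 3 for Slc16a1, and 160 kb on 141.50 Mb of chromosome 6 for Slco1c1. Those of Mfsd2a and Abcb1a were 120 kb centred on 122.63 Mb of chromosome 4 and 200 kb centred on 8.70 Mb of chromosome 5. The control list contributed 113 of 57267 regions on placed chromosomes and the gTKO list 65 of 49558. ATAC-seq marks DNA that the Tn5 transposase can reach, and a region is a stretch where the authors called an enrichment of such cuts.

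All pups were C57BL/6 mice at postnatal day 6, lacked S1pr3 (S1pr3-/-) and carried floxed S1pr1 and S1pr2 (S1pr1flox/flox S1pr2flox/flox). The gTKO pups also carried Rosa26-CreERT2, a tamoxifen-dependent recombinase that is not restricted to endothelial cells, and the controls carried no recombinase. Both received 100 µg tamoxifen by intraperitoneal injection from day 1 to day 3. Each genotype had 3 libraries, each from the pooled retinas of 4 to 6 pups, and 1 peak list stands for the 3 libraries. There is therefore no replicate error, no test between genotypes is given, and intervals cover counting error only. The lists hold positions alone, and the read depth behind them is unknown. The labels also call the cells adult, a conflict with the stated age that was not resolved. No mm9 annotation was used, so the regions were not tied to promoters, exons or introns, the sorted cell type was not checked against marker genes, and the placing of each window on its gene rests on the choice of windows.

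Endothelial cells of the retina, like those of the brain, are joined by tight junctions, and nutrients reach the neural tissue mainly through carriers in the endothelial membranes. Slc7a5 (LAT1) exchanges large neutral amino acids, Slc16a1 (MCT1) carries lactate and ketone bodies, and Slco1c1 (OATP1C1) takes up thyroid hormone. Mfsd2a carries lysophosphatidylcholine with omega-3 fatty acids and limits transcytosis, while Abcb1a is a form of P-glycoprotein that pumps drugs and other lipophilic compounds back into the blood. S1pr1, S1pr2 and S1pr3 are receptors for sphingosine 1-phosphate, a lipid of the blood plasma, and S1pr1 is known for its part in vessel stability.

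The RefSeq promoter table (GRCm38.p6) matched 4 of the 5 genes, all but Slc7a5. The 250 bases before each listed gene start are shown so that the sequence at these genes can be inspected. They were not placed on the mm9 regions, and their coordinates must not be set beside the mm9 positions given later. Capitals mark matches, on either strand, to 8 short motifs. AP-1 was searched as TGANTCA and the related cAMP response element as TGACGTCA. The E-box was searched as CACGTG, and the core bound by ETS factors as CCGGAA. Sites of forkhead factors were searched as TGTTTAC, and those of the Wnt effectors TCF and LEF as CTTTGA. The remaining motifs were the GC box with the letters GGGCGG and the CCAAT box. No 2 of the marked matches overlapped.

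Slc16a1 (GRCm38.p6, chr3:104638414-104638663, plus strand): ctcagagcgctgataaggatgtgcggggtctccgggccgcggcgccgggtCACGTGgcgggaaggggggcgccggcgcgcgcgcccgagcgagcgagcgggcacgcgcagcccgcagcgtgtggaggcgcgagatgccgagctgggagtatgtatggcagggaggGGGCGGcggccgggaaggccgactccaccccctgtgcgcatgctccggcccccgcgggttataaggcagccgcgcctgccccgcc
Slco1c1 (GRCm38.p6, chr6:141524104-141524353, plus strand): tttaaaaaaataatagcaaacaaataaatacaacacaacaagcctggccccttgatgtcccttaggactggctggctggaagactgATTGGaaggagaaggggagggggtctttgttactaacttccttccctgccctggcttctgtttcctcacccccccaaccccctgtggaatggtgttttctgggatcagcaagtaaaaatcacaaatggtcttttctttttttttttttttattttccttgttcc
Mfsd2a (GRCm38.p6, chr4:122961189-122961438, minus strand): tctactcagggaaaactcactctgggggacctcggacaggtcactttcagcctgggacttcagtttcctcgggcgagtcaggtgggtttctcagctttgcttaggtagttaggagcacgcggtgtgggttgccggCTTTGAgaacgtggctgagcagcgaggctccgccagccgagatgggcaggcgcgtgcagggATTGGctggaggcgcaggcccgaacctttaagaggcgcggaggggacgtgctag
Abcb1a (GRCm38.p6, chr5:8566841-8567090, plus strand): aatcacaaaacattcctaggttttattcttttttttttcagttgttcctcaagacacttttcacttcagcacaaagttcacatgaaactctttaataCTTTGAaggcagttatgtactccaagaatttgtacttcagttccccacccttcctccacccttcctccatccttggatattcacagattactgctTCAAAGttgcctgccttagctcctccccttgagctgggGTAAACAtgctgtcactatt

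The AP-1 motif, the binding sequence of Jun and Fos dimers, was not among these letters in any of the 4 sequences, and 6.75% of 32851 listed promoters of the same length held it. Slc16a1 had 1 E-box match 200 bases before the start and 1 GC box match 85 bases before it. Of all promoters, 6.02% held the E-box and 32.7% the GC box. Slco1c1 had 1 CCAAT match, 164 bases before the start. Mfsd2a had 1 CCAAT match 54 bases and 1 TCF match 115 bases before the start. Abcb1a had TCF matches 153 and 58 bases and a forkhead match 20 bases before the start. The shares of all promoters were 33.8% for CCAAT, 13.8% for TCF and 3.17% for the forkhead motif. The cAMP response element and the ETS core had no match in these sequences, against 1.55% and 12.0% of all promoters. The GC content was 76.4% for Slc16a1, 61.6% for Mfsd2a, 42.8% for Slco1c1 and 40.4% for Abcb1a, with a median of 52.4% over all promoters. A match is a description of letters and not a binding site.

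Fewer regions and less sequence were called in the gTKO list at 4 of the 5 loci, and Slc7a5 made up most of the difference. The Slc7a5 window held 73 control and 36 gTKO regions. The Mfsd2a window held 15 and 10, Slc16a1 13 and 9, Slco1c1 7 and 5, and Abcb1a 5 in each list. The covered length was 62.7 kb in the control list and 29.3 kb in the gTKO list over the 5 loci, a gTKO to control ratio of 0.468, where the whole lists gave 0.771. Of the difference in covered length, 81.3% lay at Slc7a5. Without Slc7a5 the ratio was 0.687.

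Regions were called shared between the lists from an overlap of 1 bp upward, and all others were control-only or gTKO-only. Of the 113 control regions, 60 were control-only (53.1%, exact 95% Clopper-Pearson interval 43.5 to 62.5%), and in the whole control list 27.0% were. Of the 60, 47 lay at Slc7a5, 6 at Mfsd2a, 5 at Slc16a1, 2 at Slco1c1 and 0 at Abcb1a. The other 4 loci together had 13 control-only regions of 40 (32.5%, interval 18.6 to 49.1%), a share whose interval includes that of the whole list. Of the 65 gTKO regions, 3 were gTKO-only (4.62%, interval 0.962 to 12.9%), and in the whole gTKO list 9.75% were. These 3 lay 1 each at Mfsd2a, Slc7a5 and Abcb1a.

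**Figure D1:**
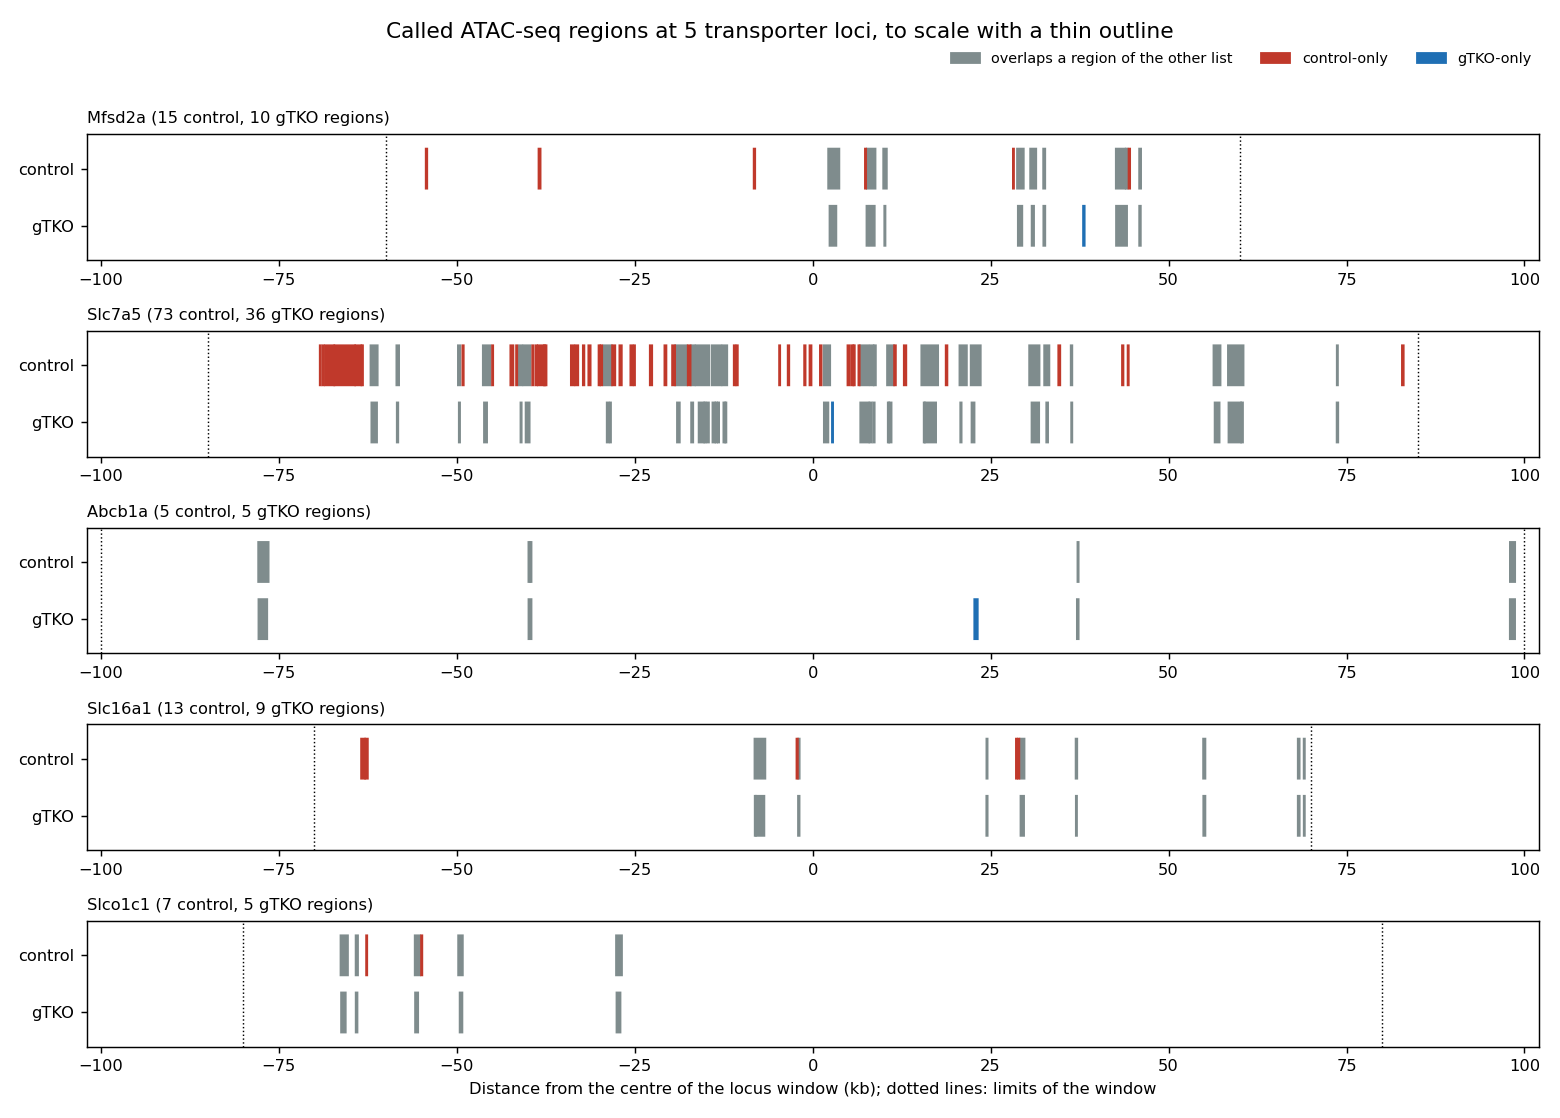
Regions of each list drawn to scale, with a thin outline, along the 5 windows, with the distance from the window's centre in kb on the x axis and 1 row per peak list. The Slc7a5 window holds 73 control regions, many of them without a partner, which cover 42.7 kb of its 170 kb. The Abcb1a window holds 5 regions in each list.

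**Figure D2:**
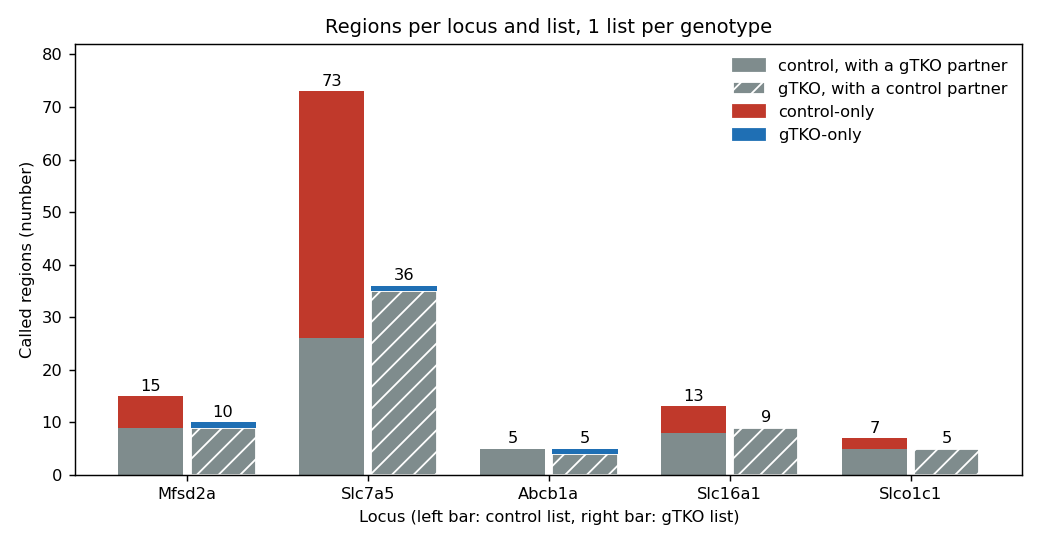
Number of regions per locus, left bar control list, right bar gTKO list, split by whether the region overlapped one of the other list. Control-only regions are the larger part of the control bar at Slc7a5 alone (47 of 73).

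In the whole lists narrow regions lacked a partner more often than wide ones, so the shares were also set beside the share that regions of the same 5 width classes had in the whole control list. That share was 29.6% for the 113 regions at the 5 loci. At Slc7a5 it was 28.3%, below the measured 64.4% (interval 52.3 to 75.3%). At Mfsd2a the measured share was 40.0% (interval 16.3 to 67.7%) and the width-based one 27.6%. At Slc16a1 they were 38.5% (13.9 to 68.4%) and 40.1%, and at Slco1c1 28.6% (3.67 to 71.0%) and 23.3%. Abcb1a had 0 of 5 (0%, interval 0 to 52.2%) and a width-based share of 35.1%. For its count of 0, 3 counts would be a share of 60.0%, a more cautious upper limit. Only the Slc7a5 interval did not hold the width-based share. These intervals treat regions as independent, while control-only regions at Slc7a5 lay in close runs. Its interval can therefore be too narrow, and the comparison is not a test.

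**Figure D3:**
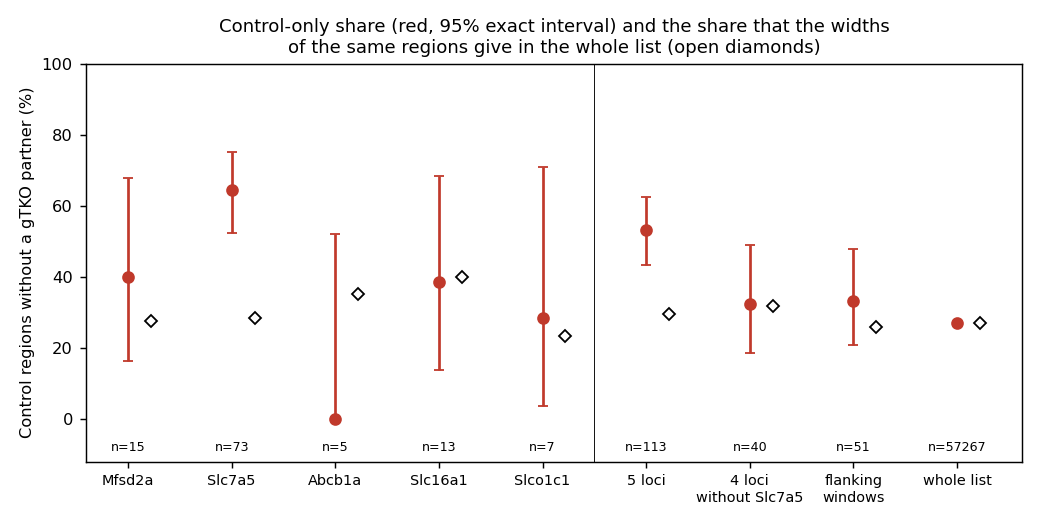
Percentage of control regions without a gTKO partner at each locus and in the pooled sets, with exact 95% intervals (counting error only), and as open diamonds the share that the same widths had in the whole list. The Slc7a5 value of 64.4% stands above its diamond at 28.3%, while the intervals of the other 4 loci include theirs.

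The flanking windows of the same length on either side of each locus held 51 control and 36 gTKO regions in all. Of these 51, 17 were control-only (33.3%, interval 20.8 to 47.9%), and the ratio of covered length was 0.768. The flanks were not alike. In the window before Mfsd2a 4 of 5 control regions were control-only, with a ratio of 0.318, below the 0.626 of Mfsd2a itself. In the window after Mfsd2a 1 of 3 was, with a ratio of 0.735. Beside Slc7a5 itself the window before held 10 control and 9 gTKO regions with 2 control-only ones, and the window after held 2 in each list with 0 control-only ones. The dense group of regions thus lay inside the Slc7a5 window: the nearest control midpoint outside was 44.5 kb before its start and 164 kb past its end, and the nearest inside were 15.8 and 2.09 kb from these limits. At the other loci the control midpoints nearest to a limit were 0.936 to 107 kb inside it and 2.34 to 258 kb outside it.

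At Slc7a5, the gene of the amino acid exchanger LAT1, the control list covered 42.7 kb and the gTKO list 15.6 kb of sequence, a ratio of 0.364. Control-only regions made up 16798 bp, 39.3% of the control coverage, where in the whole list they made up 11.5%. The regions with a partner were also narrower in the gTKO list, with a sum of 25906 bp in controls and 15411 bp in gTKO. Their ratio was 0.595, against 0.835 in the whole lists. One-list regions accounted for 61.3% of the difference in covered length at Slc7a5, and the remainder lay in regions called in both.

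Control-only regions at Slc7a5 had a higher share than in the whole list in every width class. Of 15 control regions under 200 bp, 14 were control-only (93.3%, interval 68.1 to 99.8%), against 66.4% in the whole list. Of 19 regions from 200 bp to under 300 bp, 17 were (89.5%, interval 66.9 to 98.7%), against 38.5%. Of 16 regions from 300 bp to under 500 bp, 12 were (75.0%, interval 47.6 to 92.7%), against 19.1%. Among the wider regions, 4 of 23 that measured 500 bp or more had no partner, where the whole list had 2.37%. These were 2 of 8 from 500 bp to under 1000 bp (25.0%, interval 3.19 to 65.1%), against 3.65%. The others were 2 of 15 of 1000 bp or more (13.3%, interval 1.66 to 40.5%), against 0.469%. The median width of the control-only regions was 234 bp, and that of control regions with a partner 998 bp.

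The control-only regions, 47 of 73 in the Slc7a5 window, came in runs along it. Runs in the rest of the control list were not counted, so whether these are unusual is not known. The first run, from 124345759 to 124351829 on chromosome 8 (mm9), held 6 regions that covered 5618 of 6071 bp, separated by gaps of 17 to 234 bp, and no gTKO region. It contained the widest region of the locus, from 124347810 to 124350718 (2909 bp), and the next widest control-only region, from 124346504 to 124347792 (1289 bp). The nearest gTKO region lay 2292 bp from the former and 5218 bp from the latter. A further run of 11 regions from 124375609 to 124385432 covered 3424 bp, and 7 regions from 124386829 to 124395679 covered 2302 bp. A run of 7 from 124403920 to 124416244 covered 1489 bp. Between the first and last region of each of these runs no gTKO region was called.

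The difference varied along the window. In the 10-kb bin that starts at 124.37 Mb, 8 of 10 control regions had no partner, and in the bin from 124.38 Mb 10 of 11. In this second bin the control regions summed to 4265 bp and the gTKO regions to 414 bp. In the bin from 124.43 Mb, 1 of 4 control regions was control-only (5045 and 2327 bp). In the bin from 124.47 Mb, 0 of 2 were, and the lists covered 3177 and 2711 bp. The gTKO total was the higher one in a single bin, which starts at 124.48 Mb (158 and 222 bp). The median gap between neighbouring control regions was 548 bp in this window and 8527 bp in the whole control list.

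**Figure D4:**
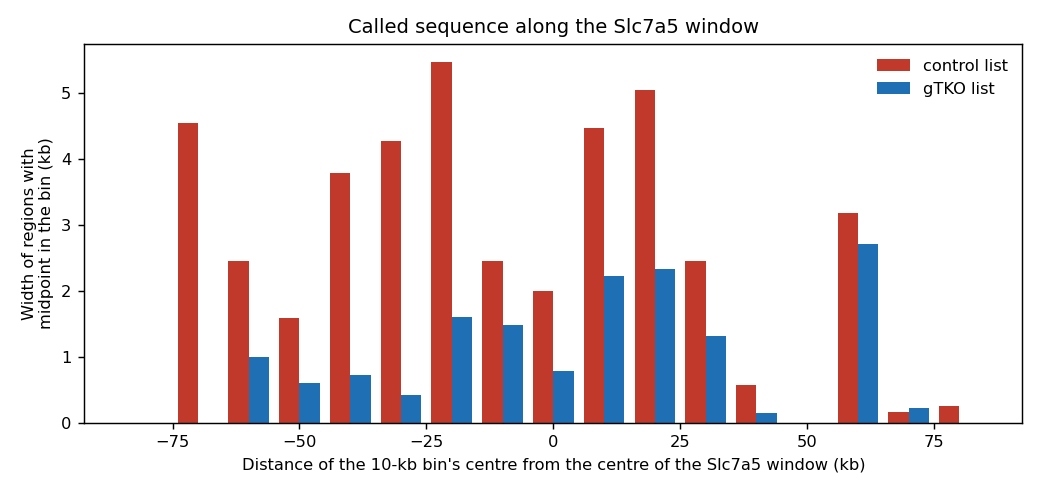
Summed width in kb of the regions with their midpoint in each 10-kb bin of the Slc7a5 window, control list in red and gTKO list in blue, by distance of the bin from the window's centre. The control bar is the taller one in every bin with a control region except the bin of 158 and 222 bp near the far end.

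Some of the Slc7a5 regions called in both lists were split in the gTKO list. Of the 73 control regions, 8 overlapped 2 or more gTKO regions (11.0%), against 5.28% of the whole control list. These shares were not matched for width: control regions with a partner had a median of 998 bp at Slc7a5 and 508 bp in the whole list. In the 2358 bp called in controls from 124430270 to 124432627, 2 gTKO regions covered 1721 bp. In the 2189 bp from 124473345 to 124475533, 2 gTKO regions covered 2018 bp. In the other direction, 1 gTKO region, from 124423543 to 124423713 (171 bp), overlapped 2 control regions and shared 122 bp with them. In the whole gTKO list 1.07% of regions overlapped 2 or more control regions. The only gTKO-only region of the locus, from 124417716 to 124417868, measured 153 bp and lay 252 bp from a control region.

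In pairs that matched 1 region to 1, the control region was the wider one in 15 of 17 at Slc7a5, and in the whole lists in 79.5% of pairs. The median control to gTKO width ratio was 1.79 at Slc7a5 and 1.15 in the whole lists. In 6 of the 17 pairs the control region was at least 2 times as wide, which 5.67% of all pairs were. The control regions of the 17 pairs had a median of 988 bp, against 476 bp over all pairs, and these shares were not matched for width. The most unequal pair was the control region from 124435626 to 124436666 (1041 bp), whose partner measured 188 bp, a ratio of 5.54. The lowest ratio, 0.712, belonged to the control region from 124488635 to 124488792 (158 bp), which lay within a gTKO region of 222 bp. A wide pair with the same order, named after its values were seen, was the control region from 124421648 to 124422822 (1175 bp) with a partner of 1203 bp. The gTKO region lay within its control partner in 14 of the 17 pairs, as did 62.7% of all pairs.

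At Slc16a1, the gene of the lactate carrier MCT1, the control list covered 4860 bp and the gTKO list 3074 bp, a ratio of 0.633. Most of this difference (79.7%) lay in 5 control-only regions with a summed width of 1423 bp. The count of 5 fell to 2 when a partner within 500 bp was allowed, and to 2 among regions of at least 200 bp. The widest were neighbours on chromosome 3. The first ran from 104386567 to 104387104 (538 bp), the second from 104387149 to 104387512 (364 bp), and the nearest gTKO region was 41031 bp away from the former. Regions with a partner were close in width, with a sum of 3437 bp in controls and 3074 bp in gTKO. In the widest one, 1524 bp called in controls from 104441832 to 104443355, the gTKO list had 2 regions that covered 1311 bp. The region from 104479169 to 104479761 (593 bp) had a partner covering 496 bp. Of 7 pairs, the control region was wider in 4 and the gTKO region in 3, with ratios from 0.894, for the control region from 104447983 to 104448175, to 1.42, for that from 104486948 to 104487172. All 9 gTKO regions had a control partner, a gTKO-only share of 0% with an interval up to 33.6%. This interval includes the 9.75% of the whole gTKO list.

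At Slco1c1, the gene of the thyroid hormone carrier OATP1C1, most of the difference lay in the width of regions called in both lists, and control-only regions gave 20.1% of it. The control list covered 3916 bp and the gTKO list 2274 bp, a ratio of 0.581. Each of the 5 gTKO regions lay within a control region that was 1.34 to 1.71 times as wide. In the whole lists the gTKO region lay within its control partner in 62.7% of pairs. The widest, on chromosome 6, was a control region of 1042 bp (141433676 to 141434717) with a partner of 652 bp. The control region of 834 bp from 141472381 to 141473214 had a partner of 559 bp, and the one of 725 bp from 141444101 to 141444825 had a partner of 433 bp. The highest ratio belonged to the region from 141450202 to 141450856 (655 bp, partner 384 bp) and the lowest to that from 141435800 to 141436129 (330 bp, partner 246 bp). The control-only regions, from 141444988 to 141445164 (177 bp) and from 141437273 to 141437425 (153 bp), made up 8.43% of the control coverage, and none of the control regions of at least 200 bp was control-only. No region of either list had its midpoint in the last 107 kb of the window, and the flanking windows held 0 control regions and 1 gTKO region.

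At Mfsd2a, the gene of the lysophosphatidylcholine carrier, the control list covered 8443 bp and the gTKO list 5288 bp, a ratio of 0.626. The 6 control-only regions were narrow (150 to 287 bp) and summed to 1241 bp, 14.7% of the control coverage. With only regions of at least 300 bp kept in both lists, all 6 fell below the limit. The 1 control region then without a partner, from 122639916 to 122640421, had a gTKO partner of 166 bp that the limit removed. The widest of the 6, on chromosome 4 from 122591492 to 122591778 (287 bp), lay 40594 bp from the nearest gTKO region. That from 122674386 to 122674600 (215 bp) lay 217 bp from one. Regions with a partner covered 7202 bp in controls and 5065 bp in gTKO, a ratio of 0.703. The widest control region, from 122632184 to 122633752 (1569 bp), had a gTKO partner of 957 bp. The region from 122637617 to 122638830 (1214 bp) overlapped 2 gTKO regions that covered 893 bp of it. The opposite was seen at the control region from 122672593 to 122673918 (1326 bp), which shared a gTKO region of 1547 bp, from 122672622 to 122674168, with a second control region. In all 6 pairs the control region was the wider one (interval 54.1 to 100%), as in 79.5% of pairs in the whole lists. The ratios ran from 1.07, for the region from 122662387 to 122662675, to 3.05, for that from 122639916 to 122640421 (506 bp, partner 166 bp). The gTKO-only region, from 122667992 to 122668214 (223 bp), lay 4378 bp from the nearest control region.

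At Abcb1a, the gene of a P-glycoprotein, the gTKO list covered slightly more sequence than the control list, 3117 bp against 2786 bp, and this was the only 1 of the 5 loci with that order. The ratio of 1.12 became 1.96 in the central 50% of the window and 1.01 with the window extended by 50 kb at each side. All 5 control regions had a partner, a control-only share of 0% with an interval up to 52.2%. This interval includes the 27.0% of the whole control list. The gTKO-only region, on chromosome 5 from 8722711 to 8723193, measured 483 bp and lay 14009 bp from the nearest control region. Without it, the gTKO regions covered 2634 bp, less than the control list. The region from 8622109 to 8623572 (1464 bp) had a gTKO partner of 1229 bp, and the region from 8797957 to 8798689 (733 bp) one of 736 bp. The control region from 8660072 to 8660296 (225 bp) and a narrower neighbour were joined in 1 gTKO region of 424 bp, from 8660082 to 8660505. The narrowest control region, from 8737203 to 8737367 (165 bp), had a partner of 245 bp, a ratio of 0.673. In the pairs at Abcb1a the gTKO region was wider in 2 of 3, too few to rank this locus against the rest.

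**Figure D5:**
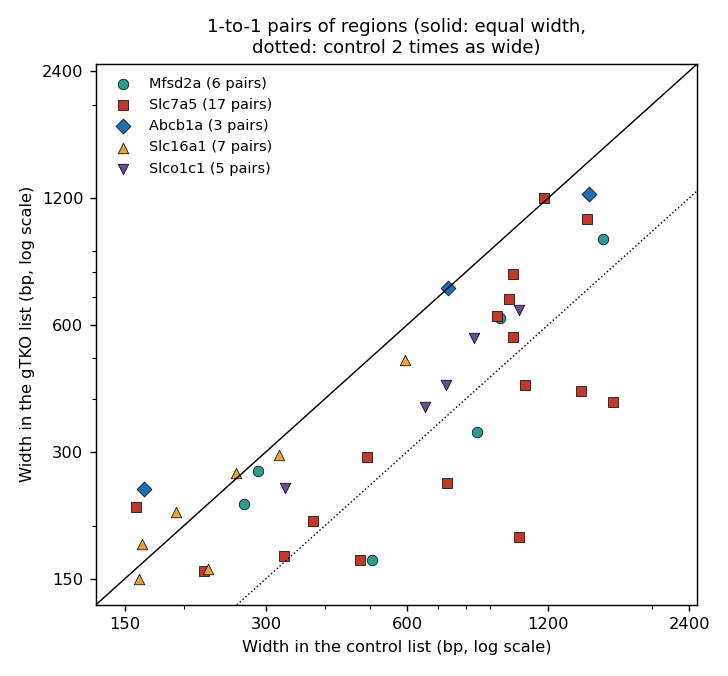
Width of the control region (x) against that of its gTKO partner (y), both in bp on log axes, for the 38 1-to-1 pairs of the 5 loci, with lines at equal width and at a control region 2 times as wide. Control regions were wider in 31 of 38 pairs, and the 8 pairs at or beyond the dotted line belong to Slc7a5 (6) and Mfsd2a (2).

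Over the 5 loci the control region was wider in 31 of 38 pairs (81.6%, interval 65.7 to 92.3%), close to the 79.5% of the whole lists. In 8 of the 38 pairs (21.1%) the control region was at least 2 times as wide, as in 5.67% of all pairs. The median control width was 690 bp in the 38 pairs and 476 bp in all pairs, and these shares were not matched for width. The ratios of covered length of the 5 loci, in order, were 0.364 at Slc7a5, 0.581 at Slco1c1, 0.626 at Mfsd2a, 0.633 at Slc16a1 and 1.12 at Abcb1a. With 1 list per genotype, no place in this order can be separated from the unknown spread between libraries. The ratios of Slco1c1, Mfsd2a and Slc16a1 also lie close together.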

How the data were processed

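Per the labels, the 3 control and the 3 gTKO ATAC-seq libraries each share 1 peak list, and the 16 RNA-seq libraries of the series are not analysed here. The submitters' processing notes name Bowtie2, Picard, MACS2, bedtools, edgeR and HOMER among the tools, and the mm9 build. How peaks were thresholded, which reads were filtered and whether libraries were pooled are details not given in the sources used here. The lists deposited by the authors hold 3 columns (sequence, start, end) and no other value. Starts were made 1-based, and regions on chromosomes 1 to 19, X and Y were used as deposited. They did not overlap within a list. A list from fewer reads can hold fewer and narrower regions, and whether the lists differed in depth was not tested.

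Windows were those given for the 5 loci. Regions named by position are, per locus, the widest control, control-only and gTKO-only regions, those spanning several regions of the other list, and the pairs with the highest and lowest width ratio. The members, windows and lists were chosen with earlier results of these data known. The overlap procedure was tested on simulated data. Versions were Python 3.11.15, scipy 1.17.1, pandas 2.3.3, numpy 2.4.6 and matplotlib 3.10.9.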

Additional observations from a re-analysis of the deposited data

How the results depend on the processing

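Over the 5 loci, the control-only share stayed above that of the whole list in every alternative run. The ratio of covered length stayed below 1, and the control region stayed the wider one in most pairs. The other 2 summed values, the control-only and gTKO-only counts, have no direction to keep. The count of 60 control-only regions became 39 with regions of at least 200 bp and 13 without the Slc7a5 locus. With at least 300 bp in both lists it became 29, including control regions whose only partners were narrower than that. The control-only share exceeded that of the whole list by 26.1 percentage points, and by 5.48 points without Slc7a5. Leaving out any other locus gave 27.7 to 28.5 points. The 3 gTKO-only regions became 28 when 50% of both regions had to overlap, since partners of unequal width then no longer counted, and 7 when only the widest control regions were kept so that both lists were equally long, a setting chosen after seeing the data. The covered length and the numbers of regions do not depend on the overlap rule, and counting any overlap with the window changed no value, so these settings could not move them. At each single locus the ratio of covered length stayed on its side of 1 in every setting. The control-only share stayed above that of the whole list at Slc7a5 and below it at Abcb1a. At the other 3 loci it went from above to below in some settings. At Mfsd2a the difference became -8.19 percentage points with at least 300 bp in both lists, and at Slc16a1 -6.01 with a partner within 500 bp. At Slco1c1 it became -6.21 with 50% overlap, -7.11 with a partner within 500 bp, -16.2 with at least 200 bp, -4.85 with at least 300 bp, -27.0 in the central 50% of the window and -3.50 with the widest control regions only. Of the single-locus counts, 113 stayed within 1.5 times and 47 did not. The 113 include numbers of regions under the other overlap rules, which could not change. The 5 regions of each list at Abcb1a became 3 control and 5 gTKO regions with at least 200 bp and 2 and 4 with at least 300 bp. No paired analysis was possible because the libraries of a genotype share 1 list, which also means that none of them could be omitted in turn. A stricter threshold could not be tried, since the lists hold no score. The depth is unknown, so what it limits could not be measured.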

Other observations

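Few tiles of the control list reached the density of regions at Slc7a5. When the placed chromosomes were divided into tiles of 170 kb from the start of each chromosome, 3 of 9355 tiles with a control region held at least 73 control regions, the number in the Slc7a5 window. The median was 4. The window straddles the grid, so none of the 3 tiles overlaps it. Other dense stretches can be cut in the same way, so the 3 tiles can undercount them. The tile on chromosome 8 from 11.73 to 11.9 Mb held 73 control regions, 68 of them control-only, with a gTKO to control ratio of covered length of 0.114. The tile on chromosome 4 from 118.66 to 118.83 Mb held 80, 56 of them control-only, and a ratio of 0.365. The tile on chromosome 4 from 146.71 to 146.88 Mb held 90, of which 20 were control-only, with a ratio of 0.920. The Slc7a5 ratio of 0.364 thus lies between those of the first and second, while the third, with the most control regions, had the highest ratio.

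The other windows were less dense. Shares were taken over the tiles of each window's length that held a control region, so empty tiles were left out. At least as many control regions as at Mfsd2a were found in 4.94% of such tiles, and as at Slc16a1 in 9.06%. The share was 30.3% for Slco1c1 and 49.8% for Abcb1a. In the RefSeq gene order (GRCm38.p6), the nearest protein-coding genes on either side were Gm42048 and Car5a for Slc7a5, Cap1 and Mycl for Mfsd2a, Lrig2 and Tafa3 for Slc16a1, Pde3a and Slco1b2 for Slco1c1, and Slc25a40 and Abcb1b for Abcb1a. Whether regions counted here belong to these neighbours was not tested.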
